A study of Mus musculus with 6 samples.

Results

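The regions described here are KAP1 peaks inside protein-coding genes that were found in both hybrid mouse embryonic stem cell (ESC) lines and carried no ZFP57 peak. They were chosen by the peak positions themselves. A region is a KAP1 peak of the JB1 line on an autosome that is under 3000 bp wide, overlaps a KAP1 peak of the BJ1 line by at least 1 bp, and overlaps no ZFP57 peak of either line. It also overlaps the body of a protein-coding gene of GENCODE M1 (mouse assembly mm9) and lies more than 1000 bp from every protein-coding gene start. Of the 38713 KAP1 peaks of JB1, 36174 were on autosomes and 35042 of these were under the width limit. Of the latter, 30045 (85.7%) overlapped a BJ1 KAP1 peak, 25881 of these overlapped no ZFP57 peak, 6084 of these touched a gene body and 5670 remained after peaks near gene starts were left out. These 5670 regions covered 4074600 bp, and 5629 of them were wholly inside gene bodies. Among the JB1 KAP1 gene-body peaks without ZFP57, 84.1% overlapped a BJ1 peak, and this share is part of the rule and not a result.

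JB1 and BJ1 are male ESC lines from reciprocal crosses of the strains JF1 and B6, with the JF1 mother named first in JB1 and the B6 mother first in BJ1. Both lines were grown without feeder cells on gelatin, in medium with serum and leukemia inhibitory factor, and the series compared no treatment. Each line gave 1 KAP1 library, 1 ZFP57 library and 1 input library, so the series held 6 libraries, of which the 4 ChIP libraries had a peak list. The lists give positions only, so read depth and peak height are unknown, and with a single library per line and antibody no difference could be set against replicate error. The KAP1 list of BJ1 was the longer one, with 72535 peaks. The ZFP57 lists held 10667 peaks in JB1 and 1318 in BJ1, so that absence of a ZFP57 peak means absence from these lists. The labelled cell type could not be checked, as no expression values were used here, and the antibodies were not tested. Ranges in parentheses after a share are exact 95% intervals by the method of Clopper and Pearson. They reflect counting error alone, and peaks are not replicates.

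KAP1 (TRIM28) is a co-repressor that does not read DNA sequence itself. It is brought to chromatin by zinc-finger proteins with a KRAB domain, of which ZFP57 is one, and in turn recruits the histone methyltransferase SETDB1, heterochromatin protein 1 and DNA methyltransferases. In ESCs it is best known for the silencing of transposable elements and for the maintenance of methylation at imprinting control regions. Genes for KRAB zinc-finger proteins are themselves known as places of KAP1 binding, often over the exon that encodes the fingers. ZFP57 binds the sequence TGCCGC when its CpG is methylated.

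A first kind of sequence under these peaks recurred throughout the genome. The most widely shared 30 bp stretches of the central 300 bp are shown in capitals within 150 bp of an example peak each, since the counts of copies given later rest on them. Group 1 is from *Gm16432* (mm9, chr1:179992037-179992186, minus strand), group 2 from *Atp13a4* (chr16:29517226-29517375, minus strand) and group 3 from *4932443I19Rik* (chr8:13722798-13722947, minus strand). All 3 examples were centred in introns. Groups 10 and 11, to which the results return, are shown by the shared stretch alone.

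Group 1: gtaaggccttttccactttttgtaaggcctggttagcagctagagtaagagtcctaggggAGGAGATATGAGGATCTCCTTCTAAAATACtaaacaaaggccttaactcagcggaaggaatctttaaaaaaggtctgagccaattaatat
Group 2: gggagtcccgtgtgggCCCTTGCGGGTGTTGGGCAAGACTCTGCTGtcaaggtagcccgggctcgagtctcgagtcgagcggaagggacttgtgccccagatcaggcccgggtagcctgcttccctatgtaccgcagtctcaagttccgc
Group 3: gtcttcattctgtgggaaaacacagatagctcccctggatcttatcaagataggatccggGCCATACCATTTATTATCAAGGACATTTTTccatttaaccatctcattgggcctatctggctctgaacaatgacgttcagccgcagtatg
Group 10: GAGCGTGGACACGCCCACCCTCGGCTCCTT
Group 11: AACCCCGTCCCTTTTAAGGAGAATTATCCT

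A second kind held the ZFP57 core motif without a ZFP57 peak. Of the 6 peaks with 4 TGCCGC starts each, 2 are shown on the plus strand of mm9, with TGCCGC on either strand in capitals. *Ppm1h* (chr10:122123357-122123506, intron) and *Kif19a* (chr11:114647657-114647806, coding sequence) had these over the whole peak, and the nearest ZFP57 peak was 151950 and 177900 bp away, in that order.

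Ppm1h: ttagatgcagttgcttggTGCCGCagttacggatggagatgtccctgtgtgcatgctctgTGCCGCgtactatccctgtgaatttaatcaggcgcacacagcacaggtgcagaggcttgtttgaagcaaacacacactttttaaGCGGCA
Kif19a: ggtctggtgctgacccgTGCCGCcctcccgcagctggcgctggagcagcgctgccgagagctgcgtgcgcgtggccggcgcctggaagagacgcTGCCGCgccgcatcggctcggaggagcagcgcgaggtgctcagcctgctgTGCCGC

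A further kind was coding sequence of zinc-finger genes. The peak shared by *Gm13225* and *Gm13242* (chr4:145127401-145127550) and that of *Zfp398* (chr6:47816626-47816775) are shown with the codons of the short linker that joins neighbouring fingers in capitals. Both are on the plus strand of mm9. A stretch of *Zfp462*, picked in the same way, held none of these codons and is not shown.

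Gm13242: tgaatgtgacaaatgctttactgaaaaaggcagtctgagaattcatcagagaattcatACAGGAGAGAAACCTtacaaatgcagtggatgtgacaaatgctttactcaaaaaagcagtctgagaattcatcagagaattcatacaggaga
Zfp398: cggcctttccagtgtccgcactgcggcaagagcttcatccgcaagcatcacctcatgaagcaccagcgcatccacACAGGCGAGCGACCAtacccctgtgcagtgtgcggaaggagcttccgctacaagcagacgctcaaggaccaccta

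In JB1 the median width of these peaks was 600 bp (quartiles 450 and 750 bp), and the widest BJ1 peak over each of them had a median of 750 bp (600 and 1050 bp). The BJ1 peak was wider at 3345 of the 5670 (59.0%, 57.7 to 60.3), of equal width at 1520 (26.8%) and narrower at 805 (14.2%, 13.3 to 15.1). Both edges were identical in 1297 pairs (22.9%), and 4440 JB1 peaks (78.3%) lay wholly under BJ1 peaks. As peaks lie on a grid of 150 bp, the least overlap possible was 1 window, and 40 pairs (0.706%) had no more. The median width over the whole list was 600 bp in both lines. The width limit was set on JB1 alone and the widest BJ1 peak was taken, and both choices favour a wider BJ1 peak. The part of depth in this was not tested. The 5670 regions are not all separate, since 590 (10.4%) abutted another JB1 KAP1 peak and 537 (9.47%) shared their widest BJ1 peak with another of the regions. The widest BJ1 peak measured 7800 bp and covered 4 of them in an intron of *1700019D03Rik*, and the next one measured 6300 bp, in *Vmn2r35*, a vomeronasal receptor gene. Near the limits of the rule, 10 peaks were 2850 bp wide and inside, and 14 were 3000 bp wide and outside. Within 500 bp on either side of the distance limit, 62 peaks were inside and 72 outside.

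**Figure D1:**
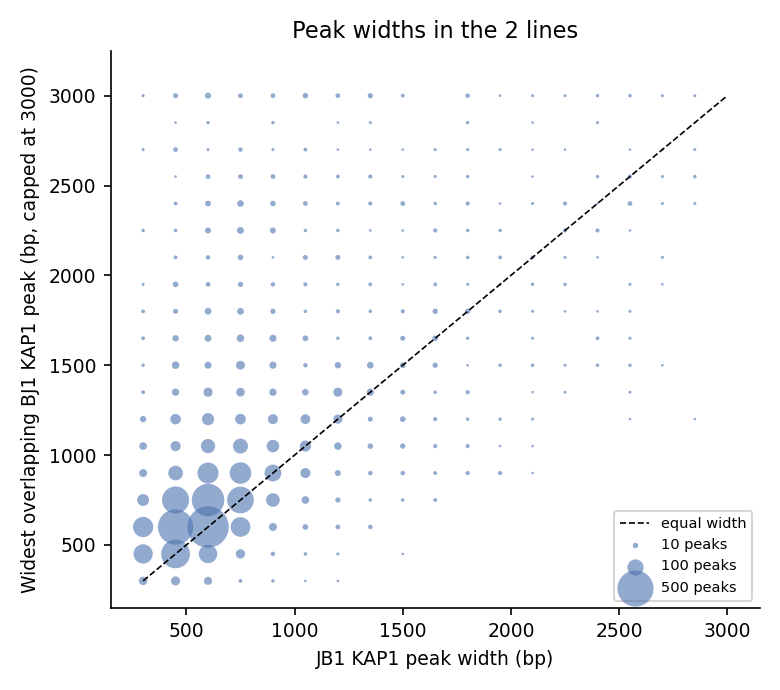
Width of each of the 5670 JB1 KAP1 peaks (x, bp) against the width of the widest BJ1 KAP1 peak over it (y, bp, capped at 3000), with circle area by number of peaks and a dashed line at equal width. Most peaks lie on or above the line, since the BJ1 peak was wider in 59.0% and of equal width in 26.8%.

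About as many of these peaks lay in repeated sequence as in unique sequence. The copies in mm9 of every 30 bp stretch of the central 300 bp were counted on both strands, and a window was called multi-copy where the median was at least 10 and single-copy where it was 1. Of the 5670 peaks, 2576 were multi-copy (45.4%, 44.1 to 46.7), 553 had few copies (9.75%) and 2541 were single-copy (44.8%, 43.5 to 46.1). Among 300 bp windows of the gene-body sequence that the rule allows, of which every 100th was counted, 1639 of 30605 were multi-copy (5.36%, 5.11 to 5.61). The multi-copy peaks had a median of 356 copies. Both thresholds around this one gave the same order, with 55.2% of peaks against 8.57% of windows at 2 copies or more and 31.5% against 3.17% at 100 or more. The share among shared KAP1 peaks without ZFP57 was higher between genes (56.4%, 55.7 to 57.1) and lower at promoters (8.53%, 6.32 to 11.2), and it was 69.0% (65.8 to 72) in shared gene-body peaks with ZFP57. In gene-body peaks found in JB1 alone it was 35.9% (33.0 to 38.8). How the authors treated reads with several matches in the genome is not given in the sources used here, and its part in these shares was not tested.

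**Figure D2:**
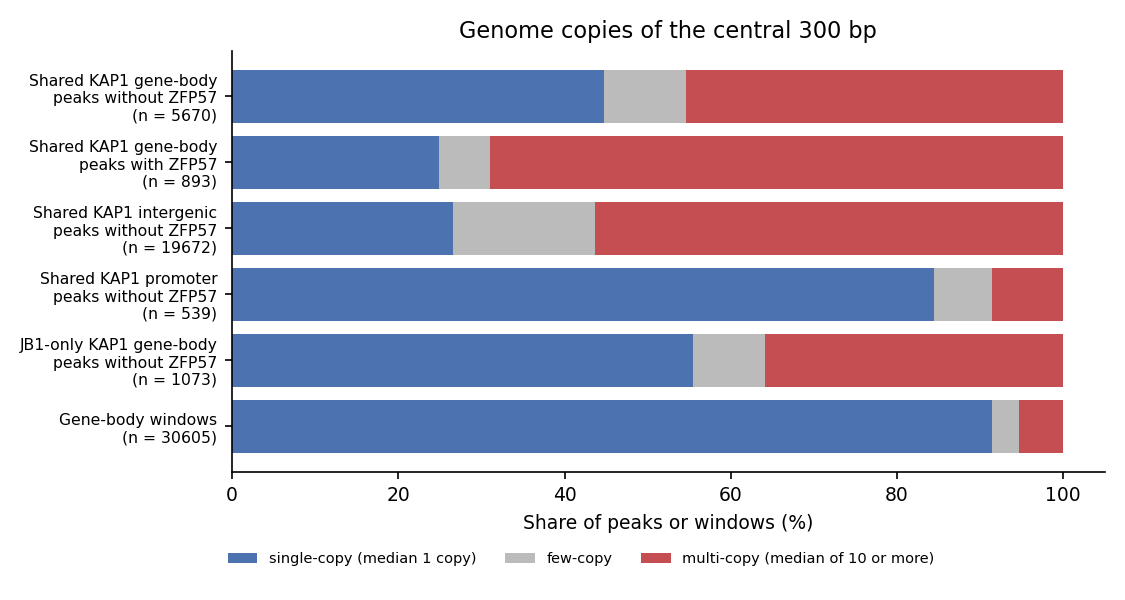
Share (x, %) of single-copy, few-copy and multi-copy central windows in 5 sets of KAP1 peaks and in gene-body windows, with the number of peaks or windows in each. The multi-copy share of the gene-body peaks without ZFP57, 45.4%, lies between those of intergenic peaks (56.4%) and promoter peaks (8.53%), and that of gene-body windows is 5.36%.

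Single-copy and multi-copy peaks differed in width. The single-copy peaks had a median of 600 bp in both lines, whereas the multi-copy ones had 750 bp in JB1 and 900 bp in BJ1. JB1 had the wider peak at 8.70% (7.63 to 9.86) of the single-copy and 19.6% (18.1 to 21.2) of the multi-copy peaks. A ZFP57 peak lay within 5000 bp of 80 single-copy peaks (3.15%, 2.50 to 3.90) and of 688 multi-copy peaks (26.7%, 25 to 28.5). Shared intergenic peaks without ZFP57 had the same order, with 6.02% and 28.5%. Without the peaks that had a ZFP57 peak this near, 38.9% of the remaining 4855 were multi-copy.

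A few shared sequences accounted for many of the multi-copy peaks. When peaks were grouped step by step by the 30 bp stretch that the most of them shared, 12 groups took in 1231 peaks, which were 21.7% of all and included 1206 of the 2576 multi-copy peaks (46.8%). The groups are left unnamed, since no annotation of repeats was used here. The stretches were picked from peaks with KAP1 in both lines, so that their copies in gene bodies are a description, whereas their copies between genes took no part in the choice. Group 1, in 197 peaks of 190 genes, had 285 gene-body copies, of which 284 (99.6%) were under KAP1 peaks of both lines, as were 1012 of its 1032 copies between genes (98.1%, 97.0 to 98.8). Group 3 was alike, with 348 of 357 gene-body copies (97.5%) and 1332 of 1401 intergenic copies (95.1%, 93.8 to 96.1). Group 10 had KAP1 of both lines at all 299 gene-body copies and at 1128 of 1129 intergenic copies (99.9%, 99.5 to 100). Peaks thus lay over nearly all copies of these 3 stretches. The authors sequenced reads longer than the 30 bp stretches, so a read over a stretch also holds flanking bases, which can differ between copies. A read that matches several copies over its whole length cannot be assigned to 1 of them. How such reads were placed is not given in the sources used here. A peak at a copy therefore does not by itself show KAP1 at that copy. This holds for all copy-by-copy shares of the 12 groups, for KAP1 and for ZFP57.

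Other groups were covered in part. Group 2, the one with the most copies, had KAP1 of both lines at 482 of 1157 gene-body copies (41.7%) and 1725 of 4411 intergenic copies (39.1%, 37.7 to 40.6), and group 12 at 140 of 253 (55.3%) and 554 of 918 (60.3%, 57.1 to 63.5). The peaks of group 2 had a median width of 450 bp in JB1 and 1050 bp in BJ1. For the remaining groups, 4 to 9 and 11, the gene-body share was between 71.3% and 94.7%.

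The groups also differed in ZFP57 and in the motifs they carried. The copies in the peaks described here are without ZFP57 by the rule, so that the counts over all gene-body copies are a description. ZFP57 of either line lay at none of the 285 copies of group 1, the 357 of group 3 and the 253 of group 12. It lay at 103 of 209 copies of group 11 (49.3%) and at 110 of 388 of group 9 (28.4%). In groups 10 and 7 it lay at 45 of 299 (15.05%) and 50 of 359 (13.9%). Of the peaks of groups 7, 9 and 11, all of them without ZFP57 by the rule, 76.7%, 87.9% and 70.4% had TGCCGC in the central window. None of group 10 had it. Of groups 5 and 8, 22.5% and 30.5% had it, with ZFP57 at 1.70% and 0.575% of the gene-body copies. In groups 4, 5 and 8 it was the core of the YY1 motif, GCCATNTT, that recurred, in 60.3%, 52.3% and 84.1% of the peaks. CpG-rich windows made up 93.0% of group 10 and 77.2% of group 6, and none of groups 1, 3 and 12.

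Each shared stretch is given in the orientation that more of its peaks had to the host gene, which makes a share over 50% a matter of definition. That share was between 53.1% (group 8) and 78.1% (group 3) over the peaks, and between 53.9% and 80.8% over all gene-body copies of the same 2 groups. As the orientation was set by peaks with KAP1 in both lines, nothing is read from the KAP1 shares of the 2 orientations, which went either way among the groups.

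**Figure D3:**
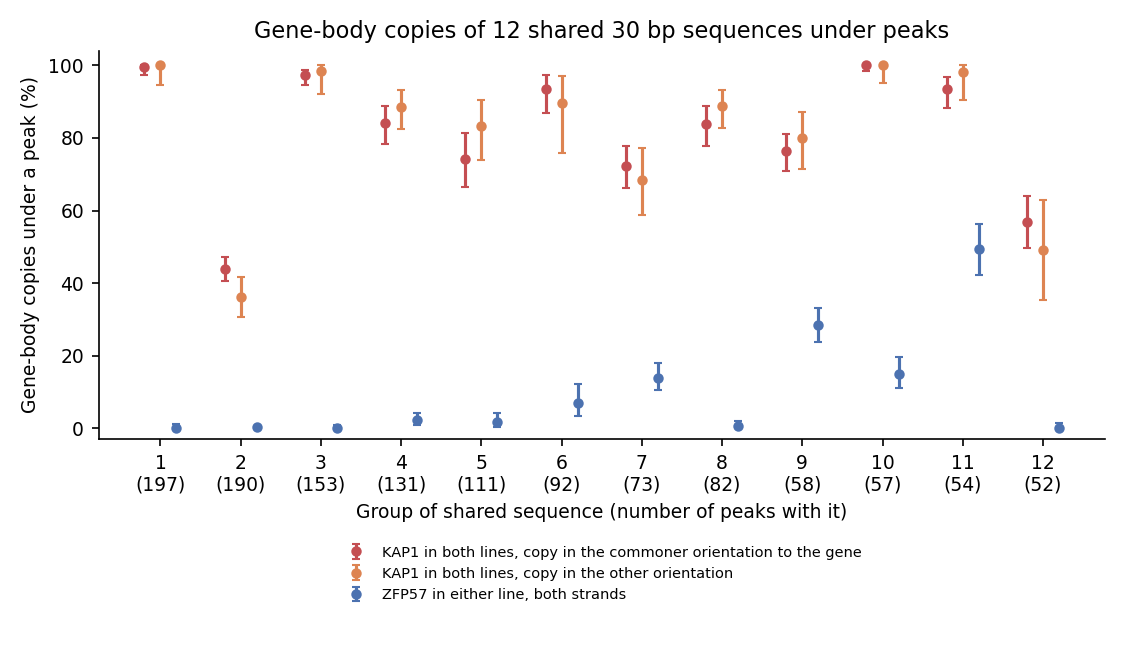
Share of gene-body copies (y, %) of the 12 shared stretches (x, with the number of peaks of each group) under KAP1 peaks of both lines, for each orientation to the host gene, and under a ZFP57 peak of either line, with exact 95% intervals. Groups 1, 3 and 10 lie at or near 100% for KAP1, groups 2 and 12 between 36.1% and 56.9%, and ZFP57 is highest in group 11, at 49.3%.

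The ZFP57 core motif was more frequent in these peaks than in gene bodies, at a share near that of other shared KAP1 peaks without ZFP57. TGCCGC, on either strand, was in the central 300 bp of 738 of the 5670 peaks (13%, 12.2 to 13.9) and of 65179 of 3060423 gene-body windows (2.13%, 2.11 to 2.15). Shared KAP1 peaks without ZFP57 had it in 12.6% between genes and in 15.4% at promoters, and all autosomal JB1 KAP1 peaks under the width limit, with or without ZFP57, had it in 17.2%. The share was alike in single-copy (12.9%, 11.6 to 14.3) and multi-copy peaks (13.6%, 12.3 to 15.0). Gene-body peaks with ZFP57 had it in 50.1% (46.7 to 53.4), and in 82.0% (76.3 to 86.8) where single-copy. The JB1-only gene-body peaks without ZFP57 had it in 22.9% (20.4 to 25.6), above the shared ones. Single-copy JB1-only peaks had it in 30.4% (26.7 to 34.3) and multi-copy ones in 13.2%, the latter near the shared multi-copy peaks. Counted over the whole peak, 4426 of the 5670 had no TGCCGC, 947 had 1, 271 had 2, 19 had 3, 6 had 4 and 1 had more. At 30 peaks (0.529%, 0.357 to 0.755) there were 2 starts less than 38 bp apart, against 76 of 893 peaks with ZFP57 (8.51%, 6.76 to 10.5), and 27 of the 30 were single-copy. The JB1-only peaks had such starts in 26 of 1073 (2.42%, 1.59 to 3.53). These sets differ in width, with a JB1 median of 600 bp here, 1050 bp with ZFP57 and 450 bp in the JB1-only peaks.

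TGCCGC holds a CpG, so it was also read among single-copy windows of like CpG number. With 1 or 2 CpGs, 3.59% (2.31 to 5.29) of the peaks and 0.799% (0.644 to 0.980) of the gene-body windows had it. With 3 to 5 CpGs the shares were 9.49% (7.62 to 11.6) and 2.76% (2.44 to 3.12), and with 6 or more 27.4% (24.3 to 30.6) and 8.65% (7.73 to 9.64). The peaks were thus above the windows in each of these classes. The class of 6 or more has no upper limit, so that CpG number is not matched within it. A match of the letters is a description and not a binding site.

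Of the other motifs searched, exact and on both strands, GGCCGC was in 7.64% of the peaks (6.96 to 8.36) against 1.73% of windows. The authors found that a ZFP57 fragment also bound this variant of the core in vitro when its CpG was methylated. Shared KAP1 peaks without ZFP57 had GGCCGC in 7.51% between genes and in 27.5% at promoters, and shared gene-body peaks with ZFP57 in 12.8%. The YY1 core GCCATNTT was in 11.0% (10.2 to 11.8) against 6.10%. The single-copy peaks had it in 5.82% (4.95 to 6.81), against 5.62% of single-copy windows. The multi-copy peaks had it in 15.5% (14.1 to 16.9), against 13.5% of multi-copy windows. Shared KAP1 peaks without ZFP57 had it in 15.1% between genes and in 4.45% at promoters. All autosomal JB1 KAP1 peaks under the width limit had it in 13.5%. The CTCF core AGGGGGC was in 5.08% (4.26 to 6.0) of the single-copy and 0.621% (0.355 to 1.01) of the multi-copy peaks, against 2.82% of single-copy and 0.854% of multi-copy windows. The octamer ATGCAAAT, the site of OCT4 and its relatives, was in 1.73% (1.26 to 2.32) of the single-copy peaks against 1.84% of single-copy windows, and in 1.40% (0.981 to 1.93) of the multi-copy peaks against 4.94% of multi-copy windows. The E-box CACGTG was in 5.19% (4.36 to 6.13) of the single-copy peaks against 3.49% of such windows, and in 2.37% (1.82 to 3.03) of the multi-copy peaks against 1.89%. GGCCGC and TGCCGC are searched as different letters and cannot match at the same start.

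**Figure D4:**
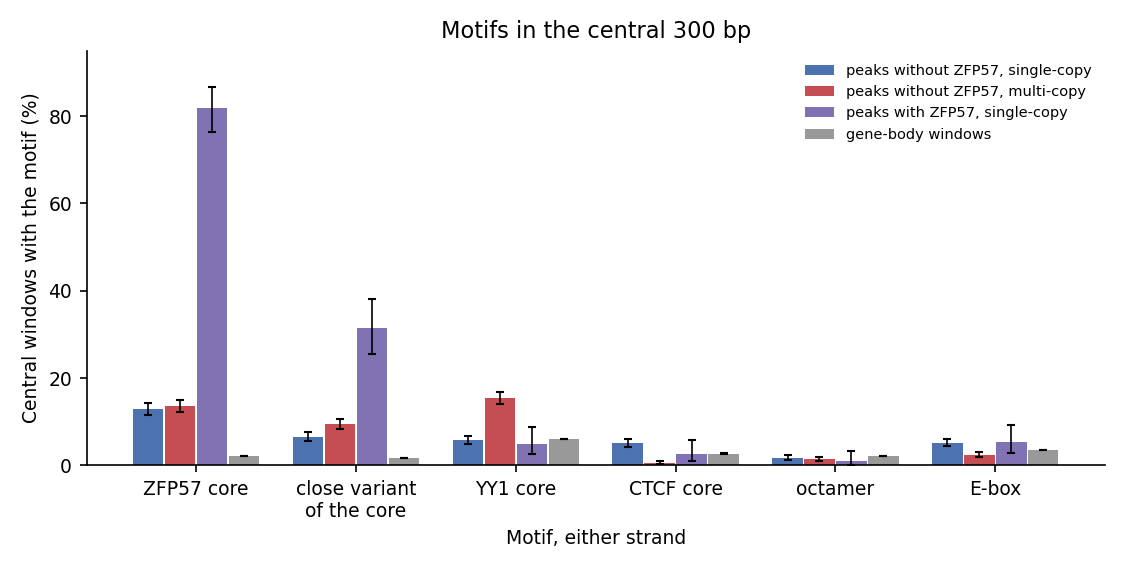
Share of central 300 bp windows (y, %) with each of 6 motifs (x) in single-copy and multi-copy shared gene-body KAP1 peaks without ZFP57, in single-copy ones with ZFP57 and in gene-body windows, with exact 95% intervals. The ZFP57 core is in 12.9% and 13.6% of the peaks without ZFP57, in 82.0% of those with it and in 2.13% of windows, and the YY1 core is highest in multi-copy peaks, at 15.5%. The windows drawn are of all copy classes, and multi-copy windows alone, not drawn, had the YY1 core in 13.5%.

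The central windows had a median GC content of 48.3% (quartiles 43.7% and 53.0%), against 43.0% (38% and 48%) in gene-body windows. A CpG-rich window, with a GC content of at least 50% and a ratio of observed to expected CpG of at least 0.6, was found in 751 peaks (13.2%, 12.4 to 14.2) and in 0.562% of gene-body windows. It was found in 13.2% of shared intergenic peaks without ZFP57, in 14.5% of all autosomal JB1 KAP1 peaks under the width limit and in 30.2% of gene-body peaks with ZFP57. In JB1-only gene-body peaks without ZFP57 it was found in 4.94% (3.72 to 6.41), and in shared promoter peaks without ZFP57 in 43.4%. The share of peaks depended on the limits, and it was 4.44% with a GC content of at least 55% and a ratio of at least 0.65, and 9.09% in windows of 600 bp over the peaks at least as wide. Most of these were in repeated sequence, with 601 of the 2576 multi-copy peaks (23.3%, 21.7 to 25) and 116 of the 2541 single-copy peaks (4.57%, 3.79 to 5.45). Single-copy gene-body windows were CpG-rich in 0.482% (0.405 to 0.571) and multi-copy ones in 1.71% (1.14 to 2.46).

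By position in the gene, the peaks as a whole were within a few percentage points of the gene-body windows, and the single-copy peaks differed more. The centre was in an intron in 5287 of the 5670 (93.2%, 92.6 to 93.9), in coding sequence in 218 (3.84%, 3.36 to 4.38) and in an untranslated region in 110 (1.94%, 1.60 to 2.33), against 93.3%, 3.21% and 2.62% of gene-body windows. Beyond 5000 bp from every gene start, the coding share was 3.17%. A start of another protein-coding transcript lay within 1000 bp of 135 peaks (2.38%, 2.00 to 2.81) and of 2.00% of windows. Among single-copy peaks it was 109 of 2541 (4.29%, 3.54 to 5.15), against 2.11% of single-copy windows. A gene end lay as near to 135 peaks as well, and to 2.20% of windows. These distances run from the edges of the whole peak or of the 300 bp window. A wider peak reaches over more sequence, which favours a higher share in the peaks. With the gene cut into 3 equal parts, 31.3%, 35.8% and 32.9% of the 5541 peaks in a single gene were centred in the first, middle and last part, and 32.1%, 34.2% and 33.7% of the windows were. The density was 6.12 peaks per Mb of allowed gene body, and by chromosome it ran from 5.06 per Mb on chromosome 2 to 7.87 on chromosome 7.

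Among single-copy peaks, the share centred in coding sequence was above that of windows, as was the share near another transcript start. Of the 218 peaks centred in coding sequence, 203 were single-copy, which made 7.99% (6.96 to 9.11) of the single-copy peaks, against 3.38% (3.17 to 3.60) of single-copy windows. The share was 8.74% (6.60 to 11.3) in single-copy JB1-only gene-body peaks without ZFP57 and 27.0% (21.3 to 33.4) in shared ones with ZFP57, so that it was not particular to the shared peaks without ZFP57. The coding-centred peaks had TGCCGC in 67 of 218 (30.7%, 24.7 to 37.3), against 7.05% of windows centred in coding sequence. They were CpG-rich in 60 (27.5%, 21.7 to 34.0) against 5.08%. A start of another protein-coding transcript was within 1000 bp of 25 (11.5%, 7.56 to 16.5), against 6.63%. A gene end was within 1000 bp of 46 (21.1%, 15.9 to 27.1), against 10.1% of coding windows. These are shares of the same 218 peaks and are not independent of each other. Those near a transcript start or a gene end rest on distances from the edges of the whole peak or window, as above.

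Zinc-finger genes took a part of the coding-centred peaks. Proteins with at least 5 C2H2 fingers, counted in the coding sequence of GENCODE M1, were encoded by 462 genes, of which 87 (18.8%, 15.4 to 22.7) held a peak, against 3037 of all 21418 autosomal protein-coding genes (14.2%). They held 137 of the 5670 peaks (2.42%, 2.03 to 2.85) and 1.56% of gene-body windows. Of the 218 coding-centred peaks, 33 were in these genes (15.1%, 10.7 to 20.6), against 3.08% of coding windows. *Zfp462*, with 33 fingers, held 7 peaks, all single-copy, and 5 of them followed each other over chr4:55015501-55024200. The last 2, centred in coding sequence and 1350 and 1800 bp wide in JB1, overlapped a single BJ1 peak of 3150 bp. In *Gm13242*, with 14 fingers, 10 peaks were found, none of them single-copy, so that reads could come from other copies of the sequence. The same limit holds for *Zfp600* (6 peaks), *Gm13138* (4), *Zfp808* (4) and *Zfp933* (3), none of which had a single-copy peak. *Zfp398* held 4 peaks, of which the one shown above was single-copy and coding.

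*Zfp445*, whose product is a KRAB zinc-finger protein known for a role at imprinted regions beside ZFP57, had the highest density of the genes with at least 3 peaks. Its 3 peaks in a gene of 10.2 kb made 29.4 per 100 kb. They were 750, 1350 and 1350 bp wide in JB1, lay over chr9:122766601-122770200 and were covered by BJ1 peaks of 4200 and 2850 bp, and a ZFP57 peak was 2100, 3000 and 4350 bp away.

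Peaks were spread over 3037 genes, of which 1911 held 1, 918 held 2 to 4, 176 held 5 to 9 and 32 held 10 or more. The host genes were long, with a median of 82.3 kb against 15.5 kb for all genes, and 58.1% of the peaks were in genes over 100 kb, as were 60.8% of gene-body windows. *Gm20388*, a record of 4435 kb that runs over many genes, held 33, *Sntg1*, the gene of a syntrophin, held 21 in 938.4 kb, and *Fgfr2*, a receptor of fibroblast growth factors annotated here over 3009 kb and so over other genes too, held 20. They were followed by *Lrp1b* (17), *Cntn5* (16), *Etl4* (15), *Nlrp9c* and *Anks1b* (14 each). In *Fgfr2*, 16 of the 20 were single-copy, whereas *Cntn5* had no single-copy peak, and *Fhit* and *Cdh18* had 12 multi-copy peaks among 13 each.

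Some shorter genes held many. *Nlrp9c*, of the NLRP family of the oocyte and early embryo, had 14 peaks in 81.2 kb, and *C1s*, of the complement system, 13 in 106.6 kb. Of these, 3 and 2 were single-copy, in that order, and reads of the other peaks could come from other copies. *Vmn2r35* had 8 peaks in 33.7 kb, and *4932443I19Rik* 9 in 37.2 kb. The other genes with the highest density were *Gm2244*, *Cd209c*, *Olfr138*, *Gm6034*, *Gm13283*, *Gm1975* and *Mc2r*, with 3 to 5 peaks each at 22.4 to 29.3 per 100 kb. All peaks of these 7 genes, of *Vmn2r35* and of *4932443I19Rik* were multi-copy. In *Vmn2r35* several of the 8 peaks abutted, as between 7750801 and 7753200 on chromosome 7, and 3 of them lay under the BJ1 peak of 6300 bp.

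**Figure D5:**
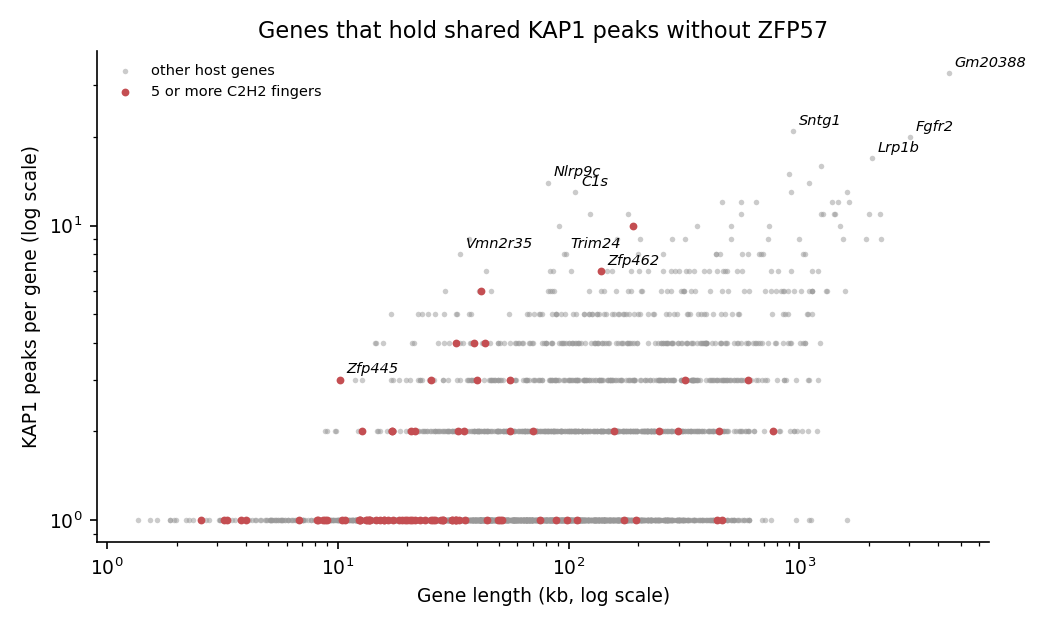
Number of shared KAP1 peaks without ZFP57 (y, log scale) against gene length (x, kb, log scale) for each gene that holds one, with genes of 5 or more C2H2 fingers in red and named genes in italics. The number rises with length up to the 33 peaks of the 4435 kb record Gm20388, while Nlrp9c, C1s, Trim24 and Vmn2r35 hold 8 to 14 in 33.7 to 106.6 kb.

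*Trim24*, which encodes a relative of KAP1 of the same TRIM subfamily, held 8 peaks, 7 of them single-copy, in 95.5 kb. The other 3 genes of this subfamily, *Trim28*, *Trim33* and *Trim66*, held none. In *Trim24*, 3 peaks of 750, 450 and 750 bp followed each other without a gap over chr6:37822651-37824600, from 1840 bp after the gene start, and all 8 were centred in introns. The nearest ZFP57 peak was 162300 bp from the first of them.

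Among 30 annotated genes of pluripotency, 4 held peaks, which were 2 in *Esrrb*, an orphan nuclear receptor, and 1 each in *Lin28a*, which encodes an RNA-binding protein, *Tcfcp2l1* and *Tcf7l1*, both of transcription factors. All 5 were single-copy. The 2 peaks of *Esrrb* were 600 and 450 bp wide in JB1 and 1200 and 1350 bp in BJ1, in introns 95184 and 136584 bp from the gene start. This share of 13.3% is near the 14.2% of all genes. Of 39 genes for KAP1 and the heterochromatin machinery, 7 held peaks (17.9%), among them 2 in *Kdm4c*, a histone demethylase, and 1 each in *Atf7ip*, the partner of SETDB1, *Morc3*, *Smarcad1*, *Mbd2* and *Zfp809*, a KRAB zinc-finger gene known for silencing of retroviral sequence. The peak of *Atf7ip* was centred in coding sequence. The peak of *Zfp809* and 1 of the 2 in *Kdm4c* were multi-copy, so that reads there could come from other copies. Of 34 Polycomb and Trithorax genes, 7 held peaks (20.6%), among them *Setd1b* and *Phc2* with 2 each and *Mtf2*, *Mll1*, *Kdm2b* and *Jarid2* with 1 each, all of these single-copy.

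Of 54 genes of LIF, FGF, WNT and BMP signalling, 9 held peaks (16.7%). Apart from *Fgfr2*, these included the activin receptor genes *Acvr1* (4, of which 1 multi-copy) and *Acvr1b* (1), *Smad5* (3, all multi-copy), *Notch1* (1) and *Jak2* (1). Of 67 imprinted genes, 9 held peaks (13.4%), among them 2 each in *Slc22a2*, *Ddc* and *Ppp1r9a* and 1 each in *Tnfrsf23*, *Qpct* and *Zdbf2*, where the peak was centred in coding sequence. The peak of *Tnfrsf23* and 1 of the 2 in *Ddc* were multi-copy, and that of *Qpct* and 1 of the 2 in *Ppp1r9a* had few copies. Of 22 annotated Hox and clustered protocadherin genes, *Pcdhgc5* alone held 1. Long neuronal genes held peaks in 56 of 59 (94.9%), and at 4.96 per Mb of allowed gene body they were under the 6.12 per Mb of all genes. By this density the pluripotency list had 6.86 per Mb, the heterochromatin list 4.98, the Polycomb and Trithorax list 5.74, the signalling list 5.69 and the imprinted list 3.14. The TRIM list had 34.0 per Mb, all from *Trim24*. The lists were chosen with earlier results of these data known, and their counts are descriptions.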

How the data were processed

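KAP1 and ZFP57 were measured by ChIP-seq in JB1 and BJ1 ESCs. The authors trimmed the reads, aligned them to mm9 with Bowtie and, by their methods, called peaks with MACS. The submitters' processing notes name CASAVA 1.8.2, Bowtie 0.12.7, SAMtools 0.1.18 and bedtools 2.14.3-1. The deposited peak lists hold positions only, counted from 1, so that no score, height or read count was used. Whether these lists, which lie on a grid of 150 bp, are the MACS output was not tested. Whether reads with several matches were kept is not given in the sources used here. Input libraries were not used here.

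Peaks were overlapped with GENCODE M1 genes and read against the mm9 sequence in Python 3.11.15 with numpy 2.4.6, pandas 2.3.3, scipy 1.17.1, numba 0.67.0 and pysam 0.24.0, and figures were drawn with matplotlib 3.10.9. The central window was 300 bp, and the background was the 3060423 windows of that size in the gene-body sequence that the rule allows. No test across samples was possible, so shares are given with exact intervals. The named genes are the 15 hosts with the most peaks, the 10 densest hosts with at least 3 peaks, the hosts of the 5 peaks with the widest BJ1 peak, up to 6 genes a list, up to 8 zinc-finger genes, and examples of sequence, some of which are not reported here. The members and lists were chosen with earlier results of these data known, and the copy classes, the groups and the comparison of coding-centred peaks after the peak lists were seen. The overlaps, distances, motif search and copy counts were tested on simulated data. The cover of the intervals was computed from binomial probabilities. The alternatives tried were other overlap, width, distance, window and CpG limits, the BJ1 list as the source of peaks, the omission of zinc-finger genes, single-copy windows alone, and copy limits.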

Additional observations from a re-analysis of the deposited data

How the results depend on the processing

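The number of regions stayed within 1.5 times of 5670 under 7 of 8 alternatives (4855 to 5631), and was 3644 when only the widest 50% of each KAP1 list entered, taken as peaks at or above the list's median width. With these peaks 14.9% of the windows were CpG-rich and 52.9% multi-copy. Beyond 5000 bp from every gene start, the coding share was 3.17%, the share near another transcript start 1.92% and the multi-copy share 47.4%. Without peaks that had a ZFP57 peak within 5000 bp the multi-copy share was 38.9%, and under 1500 bp of width it was 42.9%. It was 55.2% at 2 copies or more and 31.5% at 100 or more. In a window of 600 bp, over regions at least as wide, 21.4% had TGCCGC and 9.09% were CpG-rich, and the stricter CpG limits left 4.44%. Within 500 bp, 1.71% were near another transcript start. Among single-copy windows alone, an alternative chosen after the data were seen as were all those on the multi-copy share, the coding share was 7.99%, the CpG-rich share 4.57% and the share near another transcript start 4.29%. Without zinc-finger genes 5563 regions remained and the coding share was 3.54%. The TGCCGC share moved past its interval only with the wider window. Keeping away from transcript starts leaves no share near them, so that this value was not computed.

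No paired analysis was possible because the results come from no test and each line has 1 library per antibody. The depth of the libraries is unknown, peak edges are known to 150 bp, and a region that lacks a ZFP57 peak can still hold ZFP57 under the threshold of the peak caller. Copies were counted in the B6 reference, and sequence of JF1 was not used here.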
